A study of Mus musculus with 20 samples.

Results

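The matrix and adhesion genes of the liver were examined here as one set: collagens, laminins, integrins, matrix metalloproteinases (MMP) and their tissue inhibitors (TIMP), lysyl oxidases, fibulins, fibrillins, decorin, lumican, platelet-derived growth factors with their receptors, and the collectin Colec11. Members were found by symbol, as every probe whose single gene symbol in the platform annotation began with one of these family names. The rule found 118 probes and, after probes of one symbol were averaged, 110 genes of the 21556 features on the arrays. They comprised 34 collagen chains, 9 laminin chains, 23 integrin subunits, 3 integrin-associated genes, 21 MMP, 4 TIMP, 4 lysyl oxidases, 3 fibulins, 1 fibrillin, 2 leucine-rich proteoglycans, 3 growth factor chains, 2 growth factor receptors and Colec11. No filter on low values was applied, so all 110 were tested. Col3a1, Itga1, Itgam, Itgb1, Loxl2 and Fbn1 were not among the genes found by the rule and are not analysed here.

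The livers came from 20 C57BL/6J mice of the FCG (core genotypes) cross, with 5 animals in each of 4 groups: XX gonadal males (XXM, genotype XX Sry), XY gonadal males (XYM, XY-Sry), XX gonadal females (XXF, XX) and XY gonadal females (XYF, XY-). The Y chromosome of both XY groups lacks the testis-determining gene Sry, and both gonadal male groups carry Sry as a transgene on an autosome, so that gonads and sex chromosomes were inherited separately. Every animal, in all groups, lost its gonads at 8 weeks of age, ate a chow diet of 4% fat and gave its liver at 12 weeks, having fasted for 12 h. A difference between gonadal types therefore joins the transgene itself with the gonads carried until 8 weeks, and these cannot be told apart. Each array held the liver of 1 animal in Cy5 against a common liver pool in Cy3, and each value is the log2 ratio of liver to pool. A ratio carries no absolute level, so genes are compared with themselves across livers and never with each other, and the tissue could not be checked through the presence or absence of its markers.

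The extracellular matrix of a healthy liver is sparse. Interstitial collagens lie mostly in portal tracts and the capsule, and the sinusoids are lined by a thin matrix of basement membrane components in the space of Disse. Hepatic stellate cells and portal fibroblasts make most fibrillar collagen, laminins and collagen IV form the networks of basement membranes, MMP cleave matrix proteins and TIMP block them. Integrins are paired alpha and beta subunits that bind cells to matrix or, on leukocytes, to other cells. The transcripts were measured in whole liver, so fewer cells of a type and less RNA per cell cannot be told apart.

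Promoter windows were looked up for the 15 genes that passed the test below, all of them lower in gonadal males. RefSeq windows on GRCm38.p6, from 250 bases before to 50 bases after a start, were at hand for 77 of the 110 members and 7 of the 15. The sequences of 3 are shown: Col4a6 and Itgb7, whose values did not overlap between gonadal types, and the fibrillar collagen gene Col5a1. Col4a6 lies at chrX:141474027-141474326 on the minus strand, Itgb7 at chr15:102231886-102232185 on the minus strand, and Col5a1 at chr2:27886175-27886474 on the plus strand. All are written 5′ to 3′ along the gene. Capitals mark matches on either strand to any of 7 motifs.

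Col4a6: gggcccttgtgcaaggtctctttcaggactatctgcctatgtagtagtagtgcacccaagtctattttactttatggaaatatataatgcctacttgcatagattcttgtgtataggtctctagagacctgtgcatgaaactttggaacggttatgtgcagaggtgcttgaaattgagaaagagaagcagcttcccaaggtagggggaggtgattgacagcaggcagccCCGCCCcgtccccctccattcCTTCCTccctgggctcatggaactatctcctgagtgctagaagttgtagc

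Itgb7: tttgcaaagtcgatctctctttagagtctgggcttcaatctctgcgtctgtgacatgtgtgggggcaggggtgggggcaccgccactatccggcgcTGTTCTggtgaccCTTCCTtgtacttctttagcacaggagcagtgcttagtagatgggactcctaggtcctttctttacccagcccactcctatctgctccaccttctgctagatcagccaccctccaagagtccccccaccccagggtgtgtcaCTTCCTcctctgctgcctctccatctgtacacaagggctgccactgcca

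Col5a1: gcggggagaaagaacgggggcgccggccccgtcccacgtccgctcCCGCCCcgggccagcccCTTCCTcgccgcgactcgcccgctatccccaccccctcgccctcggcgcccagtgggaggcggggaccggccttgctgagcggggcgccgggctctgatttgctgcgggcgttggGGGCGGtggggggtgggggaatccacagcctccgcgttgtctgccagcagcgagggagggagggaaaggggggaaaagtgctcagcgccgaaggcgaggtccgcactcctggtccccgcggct

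The motifs searched were TATAAA, the core promoter element bound by TBP; GGGCGG, the GC box; CCAAT, bound by NF-Y; TGANTCA, the AP-1 element; TTCNNNGAA, the STAT element; AGAACA, the core of the steroid receptor element; and AGGAAG, the ETS core. No base above belonged to more than 1 match. Col4a6 held 1 GC box and 1 ETS core, Col5a1 held 2 GC boxes and 1 ETS core, and Itgb7 held 1 steroid receptor core and 2 ETS cores. Of the 7 windows of called genes, 4 held an ETS core, 3 a GC box and 2 a steroid receptor core, whereas none held TATAAA. Over the 77 member windows the GC box was present in 50.6%, against 35.9% of all 27025 windows, the ETS core in 45.5%, against 35.1%, the AP-1 element in 13%, against 7.9%, and TATAAA in 16.9%, against 14.2%. The other 3 were rarer in member windows: CCAAT in 26%, against 38.0%, the steroid receptor core in 14.3%, against 19.0%, and the STAT element in 5.2%, against 8.4%. The median GC content was 58% over member windows and 52.7% over all. These are matches of letters and not sites of binding.

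Sex-linked genes were read before any comparison. For the Y-linked gene Eif2s3y, 9 of the 10 arrays with an XY label ranged from 0.57 to 1.34, whereas the 10 XX arrays ranged from -5.28 to -2.46. The library labelled XYF 30, at -3.90, fell in the XX range and goes against its label. It remains in the XYF group here, and the main count is repeated without it. The spread of log2 ratios over all features ran from 0.175 to 0.341, and the 4 widest arrays (XXF 2, XXF 6, XYF 3 and XYF 12) were all of gonadal females. Correlations between arrays over all features ran from -0.55 to 0.68, with 11 of 190 pairs under -0.3. All livers carried the same dye, so the direction was kept.

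The first comparison set gonadal males against gonadal females, over both sex chromosome complements. Of the 110 members, 15 were lower in gonadal males and none was higher (limma, adjusted p under 0.05), which is 13.6% of the set. Over all 21556 features, which are 11647 named genes and 9909 single unnamed probes, 3.75% were called, 2.28% lower and 1.47% higher. The same shares stand beside each count by family or list for gonadal type below. The 15 were the laminin chains Lama1 and Lama4, the collagen chains Col4a6, Col5a1, Col5a2, Col14a1 and Col15a1, the gelatinase Mmp2, the integrin subunits Itgal, Itgax, Itgb2, Itgb5 and Itgb7, the receptor Pdgfrb, and Colec11. Their log2 differences ran from -0.90 for Itgal to -0.21 for Itgb2. An unadjusted p under 0.05 was reached by 34 members, 29 of them lower in gonadal males, which is 30.9% of the set against 17.8% of all features. The median difference was -0.05 over the members and 0.01 over all features, and 73 of 110 members lay below 0, against 46.3% of all features. The number of calls moved with the arrays used, over the members and over all features. With XYF 30 left out, 17 members and 1129 features were called, against 15 and 808 with all arrays. Without the 4 widest arrays 11 members and 830 features were called, and without all 5 of these arrays 9 members and 723 features. In both of these last fits 1 of the members called, Timp3, was higher in gonadal males.

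**Figure D1:**
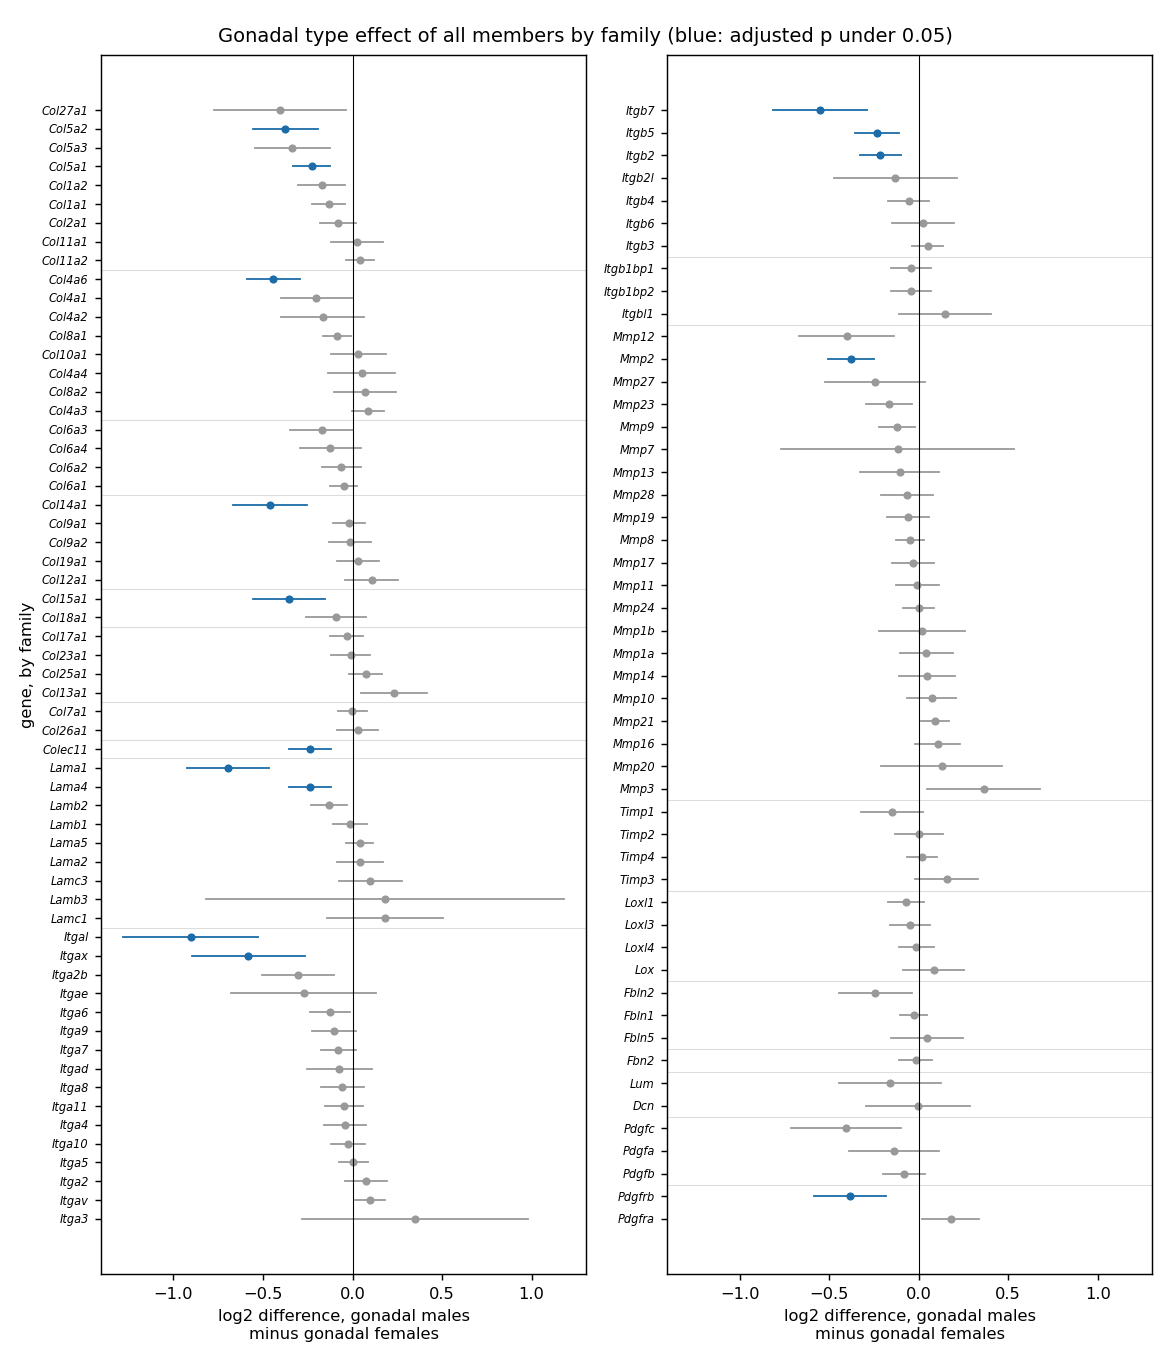
Log2 difference of gonadal males minus gonadal females for each of the 110 genes, ordered by family (points) with the 95% interval from limma (bars); 10 livers per gonadal type. The 15 blue genes passed an adjusted p under 0.05 and all lie left of 0, from -0.90 for Itgal to -0.21 for Itgb2.

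Among the laminins, 2 of 9 chains were lower in gonadal males, where 2.28% of all features were. Lama1 encodes the alpha-1 chain of basement membrane laminin. It had a lowest value of -0.60, a median of -0.25 and a highest value of -0.08 in gonadal males, against -0.08, 0.29 and 1.20 in gonadal females. All 10 gonadal males lay below the pool, 9 of 10 gonadal females lay above it, and 9 of 10 gonadal males lay below the lowest gonadal female. The difference was -0.70 ± 0.11 (SE), or 1.62-fold lower (adjusted p = 0.00165), the smallest p of any member. Lama4 encodes the alpha-4 chain, found in the basement membranes of vessels. Its values in gonadal males ran from -0.35 through a median of -0.10 to 0.02, and in gonadal females from -0.01 through 0.06 to 0.33. The groups met around 0, and the difference was -0.24 ± 0.05 (adjusted p = 0.0222). The other laminin chains did not pass. Lamb2, a beta chain, differed by -0.13 ± 0.05 (adjusted p = 0.131), Lamb1 by -0.01 ± 0.05, and Lamc1, the gamma chain shared by most laminins, by 0.18 ± 0.16.

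Of the 8 network collagens, Col4a6 was lower in gonadal males. It encodes the alpha-6 chain of collagen IV, a basement membrane collagen, and is X-linked. Gonadal males spanned -0.58 to -0.11 with a median of -0.31, and gonadal females spanned -0.10 to 0.42 with a median of 0.14. The groups did not overlap. Col4a6 and Itgb7 were the 2 members (1.82%) with all gonadal males below all gonadal females, a pattern held by 0.288% of all features; no member had the opposite pattern, held by 0.0557%. The Col4a6 difference was -0.44 ± 0.07, or 1.36-fold lower (adjusted p = 0.00189). The chains of the most widespread collagen IV network did not pass: Col4a1 differed by -0.20 ± 0.09 (adjusted p = 0.266) and Col4a2 by -0.17 ± 0.11 (adjusted p = 0.49).

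Of the 9 fibrillar collagens 2 were called, both chains of collagen V, which is built into collagen I fibrils and limits their width. Col5a1 lay between -0.25 and 0.05 in gonadal males (median -0.07) and between -0.004 and 0.33 in gonadal females (median 0.15). Of the gonadal males, 9 lay below the lowest gonadal female. The difference was -0.23 ± 0.05 (adjusted p = 0.0141). Col5a2 lay between -0.33 and 0.05 in gonadal males (median -0.18) and between -0.19 and 0.76 in gonadal females (median 0.21), with more overlap. It differed by -0.37 ± 0.09 (adjusted p = 0.0218), and without XXM 31 by -0.35 (adjusted p = 0.0504). Neither Col5a1 nor Col5a2 was called without XYF 30 and the 4 widest arrays (-0.16, adjusted p = 0.106, and -0.25, adjusted p = 0.0908). Col5a3, the third chain, differed by -0.34 ± 0.10 (adjusted p = 0.0673).

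Collagen I, the main fibrillar collagen, was not called as averaged over probes, and its probes disagreed. Col1a1 averaged over 4 probes differed by -0.13 ± 0.04 (adjusted p = 0.102) and Col1a2 over 2 probes by -0.17 ± 0.06 (adjusted p = 0.132). The Col1a1 probe whose accession is in the mouse gene table lay between -0.84 and -0.004 in gonadal males (median -0.50) and between -0.32 and 1.62 in gonadal females (median 0.32). On this probe alone the difference was -0.87 ± 0.19 (adjusted p = 0.0177). The other 3 Col1a1 probes, whose accessions are not in that table, differed by 0.05, 0.13 and 0.17, none past the threshold. Whether these 3 measure the mouse transcript was not tested. For Col1a2, one probe gave -0.43 ± 0.10 (adjusted p = 0.0256) and the other 0.08 ± 0.07. Loxl1, a lysyl oxidase that cross-links elastin and collagen, gave -0.36 ± 0.07 (adjusted p = 0.0099) on one probe and 0.22 ± 0.07 (adjusted p = 0.118) on the other. The average of such probes does not describe either of them. Of the 6 members with several probes 3 had a called probe, and a count by any probe gave 18 members in place of 15, with 800 of all 23574 probes called.

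**Figure D2:**
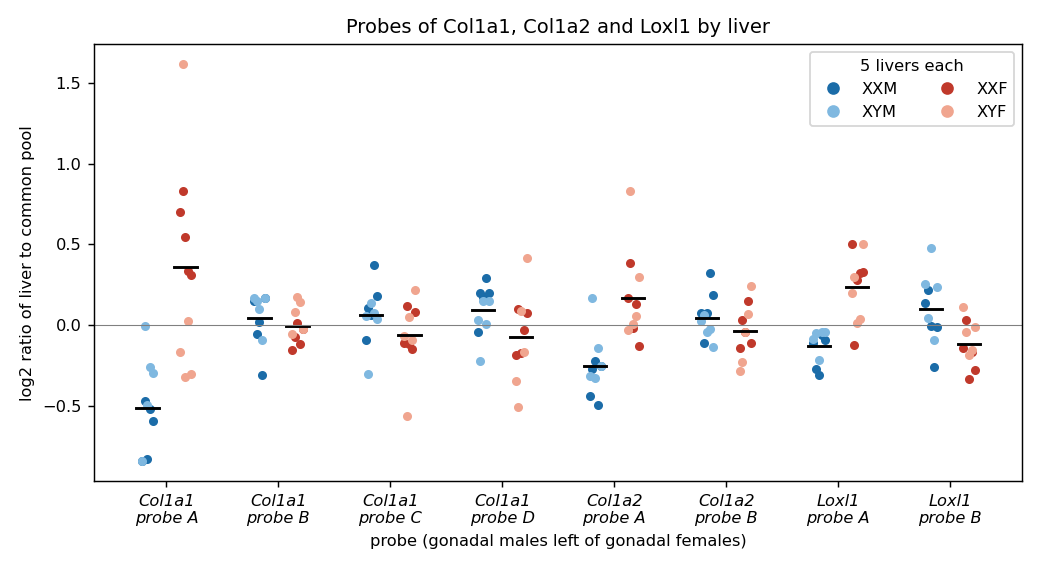
Log2 ratio to the pool of each probe of Col1a1, Col1a2 and Loxl1 in each liver (points) with the mean of each gonadal type (bars), gonadal males left of gonadal females. Probe A of each gene is lower in gonadal males, by -0.87, -0.43 and -0.36, while the other probes differ by 0.05 to 0.22.

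The remaining called collagens sit on the surface of fibrils or beside basement membranes. Col14a1, a fibril-associated collagen, was 1.37-fold lower in gonadal males. Its values ran from -0.49 through a median of -0.21 to 0.13 in gonadal males and from -0.37 through 0.29 to 0.81 in gonadal females. Of the gonadal females 9 of 10 lay above the pool and XYF 3 (-0.37) lay among the gonadal males. The difference was -0.46 ± 0.10 (adjusted p = 0.0148). Col15a1, a basement membrane zone proteoglycan collagen, lay between -0.88 and 0.14 in gonadal males (median -0.06) and between 0.06 and 0.29 in gonadal females (median 0.24). It differed by -0.35 ± 0.10 (adjusted p = 0.0477) and failed in 14 of the 20 fits that left out 1 liver. Col18a1, the related source of endostatin, differed by -0.09 ± 0.08. Col6a1 and Col6a2, chains of the beaded filament collagen VI, differed by -0.05 ± 0.04 and -0.06 ± 0.05. None of the 4 collagen VI chains, 4 transmembrane collagens or the 2 other collagens was called. Col13a1, a transmembrane collagen, had the smallest p among members with a value above 0 (0.23 ± 0.09, adjusted p = 0.155).

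**Figure D3:**
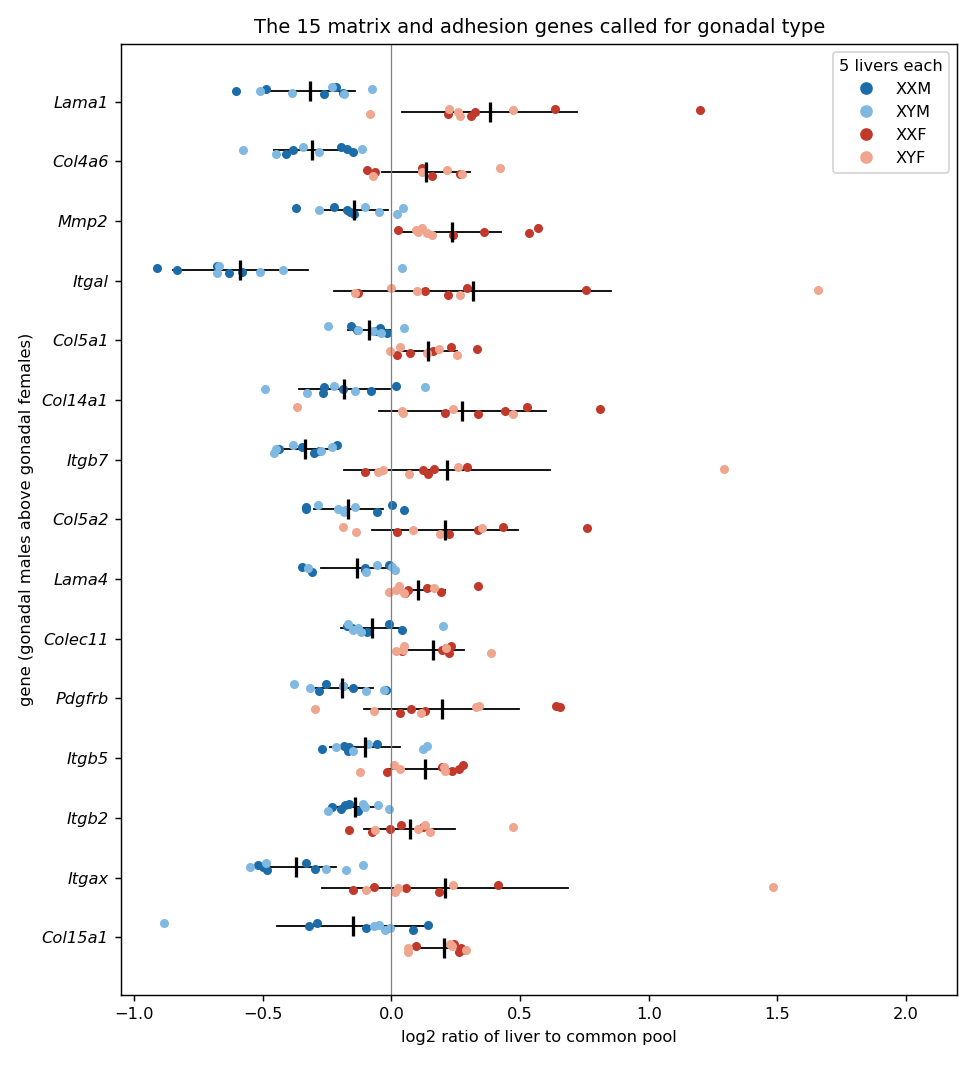
Log2 ratio to the pool of the 15 called genes in each of the 20 livers (points, coloured by group), with the mean (tick) and SD (line) of the 10 gonadal males above those of the 10 gonadal females. Every mean is lower in gonadal males, and the ranges are apart for Col4a6 and Itgb7 alone.

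Among the proteases, 1 of 21 MMP genes was called, where 3.75% of all features were. Mmp2 encodes gelatinase A, which cleaves denatured collagen and collagen IV. In XXM livers it stood at -0.22, -0.37, -0.17, -0.16 and -0.15, and in XXF livers at 0.57, 0.02, 0.36, 0.54 and 0.24. In XYM livers it stood at -0.10, 0.05, -0.28, -0.05 and 0.02, and in XYF livers at 0.12, 0.09, 0.10, 0.14 and 0.16. Gonadal males lay below gonadal females within each complement, without overlap, and over both complements XYM 14 lay above the lowest gonadal female. The difference was -0.38 ± 0.06, or 1.30-fold lower (adjusted p = 0.00228).

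None of the other 20 MMP genes passed, and neither did any of the 4 TIMP genes. The 10 MMP genes of the chromosome 9 cluster included values of both signs: Mmp3, stromelysin-1, differed by 0.36 ± 0.15 (adjusted p = 0.207), Mmp12, the macrophage elastase, by -0.40 ± 0.13 (adjusted p = 0.084) and Mmp13, collagenase-3, by -0.11 ± 0.10. Mmp21, which lies elsewhere, differed by 0.09 ± 0.04 (adjusted p = 0.198). Mmp9, gelatinase B, differed by -0.12 ± 0.05 (adjusted p = 0.19) and Mmp14, the membrane protease that activates pro-Mmp2, by 0.05 ± 0.08. Timp2, the inhibitor that takes part in that activation, differed by 0.00 ± 0.06, with a 95% interval from -0.14 to 0.14. Timp1 differed by -0.15 ± 0.08 (adjusted p = 0.362). Timp3, an inhibitor bound to the matrix, differed by 0.16 ± 0.08 (adjusted p = 0.359). It was higher in gonadal males once the 4 widest arrays were left out (0.30, adjusted p = 0.0106).

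Integrin subunits held 5 of the 15 calls, of 23 measured, where 3.75% of all features were called. Itgal encodes the alpha chain of the leukocyte integrin LFA-1. It spanned -0.91 to 0.04 in gonadal males with a median of -0.65, and -0.14 to 1.66 in gonadal females with a median of 0.18. All gonadal males but XYM 14 lay below every gonadal female, and XYF 12 stood far above the other gonadal females. The difference was -0.90 ± 0.18, or 1.87-fold lower (adjusted p = 0.00935), and -0.74 without XYF 12 (adjusted p = 6.68e-04). Itgb2, the beta chain that pairs with it, spanned -0.25 to -0.01 in gonadal males (median -0.15) and -0.17 to 0.47 in gonadal females (median 0.07). It differed by -0.21 ± 0.06 (adjusted p = 0.038) and failed in 11 of the 20 fits without 1 liver.

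Itgax, the alpha chain of the integrin also known as CD11c, lay between -0.55 and -0.11 in gonadal males (median -0.41) and between -0.15 and 1.48 in gonadal females (median 0.04). It differed by -0.58 ± 0.15 (adjusted p = 0.0385) and failed in 12 of 20 fits without 1 liver. Itgb7, the beta chain that pairs with the alpha-4 and alpha-E subunits on lymphocytes, spanned -0.46 to -0.21 in gonadal males (median -0.32) and -0.10 to 1.29 in gonadal females (median 0.13). The groups did not overlap. The difference was -0.55 ± 0.13, or 1.47-fold lower (adjusted p = 0.0201), and -0.43 without XYF 12 (adjusted p = 2.20e-04). Its partner Itga4 differed by -0.04 ± 0.06.

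Itgb5 pairs with the alpha-v subunit and binds vitronectin on many cell types. It lay between -0.27 and 0.14 in gonadal males (median -0.16) and between -0.12 and 0.28 in gonadal females (median 0.20). It differed by -0.23 ± 0.06 (adjusted p = 0.0308) and failed in 10 of 20 fits. The alpha-v subunit itself, Itgav, differed by 0.10 ± 0.04 (adjusted p = 0.185), and Itga6, a laminin-binding subunit, by -0.13 ± 0.05 (adjusted p = 0.217). Grouped by a chosen list, the leukocyte integrins (Itgal, Itgax, Itgad, Itgae, Itgb2, Itgb7 and Itga4) had 4 of 7 called and all 7 below 0, with a median of -0.27. The other 16 subunits had 1 called, 10 below 0 and a median of -0.05. Itgb2l was counted among these 16 and was not called, with a median of -0.14 in gonadal males and -0.11 in gonadal females. This grouping was made with the values known.

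Of the growth factor genes, Pdgfrb was called. It encodes the beta receptor for platelet-derived growth factor, carried by stellate cells and pericytes. Gonadal males spanned -0.38 to -0.02 with a median of -0.19, and gonadal females -0.30 to 0.65 with a median of 0.12. The 2 highest were XXF 2 and XXF 6, and XYF 22 lay among the lowest gonadal males. The difference was -0.39 ± 0.10 (adjusted p = 0.0308); it failed in 8 of 20 fits without 1 liver, and without the 4 widest arrays it was -0.19 (adjusted p = 0.152). Pdgfra, the alpha receptor, differed by 0.18 ± 0.08 (adjusted p = 0.214) and the ligand gene Pdgfc by -0.41 ± 0.15 (adjusted p = 0.136).

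Colec11 encodes collectin-11, a secreted lectin with a collagen-like region that activates complement. It lay between -0.17 and 0.20 in gonadal males (median -0.13) and between 0.02 and 0.39 in gonadal females (median 0.20). The difference was -0.24 ± 0.06 (adjusted p = 0.0267), and it did not pass without XXM 18, XXM 31, XYM 19 or XXF 2 (adjusted p from 0.0504 without XXF 2 to 0.0579 without XXM 31). Decorin and lumican, small proteoglycans that bind collagen fibrils, were not called (Dcn -0.005 ± 0.14, Lum -0.16 ± 0.14), nor was any fibulin, fibrillin or lysyl oxidase as averaged. Fbln2, a basement membrane fibulin, differed by -0.24 ± 0.10 (adjusted p = 0.185) and Lox by 0.08 ± 0.08.

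Genes that make, bind or sense the matrix outside the set were read from lists. Over all features 2.28% were called lower in gonadal males and 1.47% higher. Of 26 measured matrix glycoproteins and proteoglycans, 2 were lower in gonadal males and 1 was higher. Sparc, a collagen-binding glycoprotein, was at -0.39 ± 0.10 (adjusted p = 0.0308) and Emilin1, an elastic fibre glycoprotein, at -0.23 ± 0.06 (adjusted p = 0.0255). Omd, a small leucine-rich proteoglycan first known from bone, was higher by 1.12 ± 0.20 (adjusted p = 0.00438). Of 16 collagen-modifying genes, 2 were lower: Pcolce, which enhances the trimming of procollagen, by -0.43 ± 0.07 (adjusted p = 0.00267), and Serpinh1, the collagen chaperone HSP47, by -0.44 ± 0.10 (adjusted p = 0.0201). None of 18 genes of TGF-beta signalling, 15 other proteases and inhibitors or 18 integrin partners was called. The list medians were -0.02 for glycoproteins, -0.01 for collagen-modifying genes, -0.005 for TGF-beta genes, 0.04 for other proteases and 0.01 for integrin partners, against 0.01 over all features.

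Markers of the liver's cell types were read beside these genes, with the same 2.28% of all features called lower and 1.47% higher. Of 11 measured stellate cell and fibroblast markers none was called and 7 lay below 0, with a median difference of -0.12. The list's mean ran from -0.13 to 0.01 in gonadal males and from -0.03 to 0.23 in gonadal females. The 2 highest livers were XXF 2 and XXF 6, both among the 4 widest arrays. These were also the 2 highest for Pdgfrb, Col5a2, Lama1 and Col14a1, but not for Col5a1, Lama4, Col4a6, Col15a1 or Mmp2. Endothelial markers had no call of 13 and a median of -0.03, and hepatocyte markers no call of 8 and a median of -0.01. Cholangiocyte markers had 2 of 7 called lower in gonadal males, Krt8, a keratin of simple epithelia, by -0.36 ± 0.09 and Muc1, an epithelial mucin, by -0.60 ± 0.13. The others, none of them called, were Krt18 (-0.16 ± 0.12), Cftr (-0.12 ± 0.08), Krt19 (-0.09 ± 0.07), Epcam (-0.07 ± 0.07) and Cldn7 (-0.04 ± 0.04). All 7 lay below 0, with a median of -0.12. Krt8 and Krt18 are also made by hepatocytes, so the list does not mark cholangiocytes alone. Without the 4 widest arrays the medians were -0.05 for stellate, -0.01 for endothelial, -0.01 for hepatocyte and -0.10 for cholangiocyte markers. The mean of the cholangiocyte list, with Krt8 and Krt18 in it, did not overlap between gonadal types. It ran from -0.28 to -0.003 in gonadal males and from 0.016 to 0.288 in gonadal females. How often the mean of other gene sets of this size stands apart in this way was not computed. The part of these cell types in the collagen, laminin and Pdgfrb differences was not tested.

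Leukocyte marker lists were read beside the leukocyte integrins, and no correlation between them was computed. T and NK lymphocyte markers had 7 of 16 called lower in gonadal males and 11 of 16 below 0, with a median of -0.19, and list means from -0.37 to -0.11 in gonadal males and from -0.02 to 0.72 in gonadal females. Among them Cd2, a T and NK cell adhesion receptor, differed by -1.45 ± 0.18 and Cd3g, a chain of the T cell receptor complex, by -1.11 ± 0.14, while the 5 above 0, none of them called, ran from 0.07 for Cd5 to 0.18 for Gzma. Kupffer cell and macrophage markers had 6 of 15 called lower and all 15 below 0, with a median of -0.63 and means from -0.85 to 0.35 in gonadal males, against -0.29 to 1.47 in gonadal females. B lymphocyte markers had 2 of 5 called lower, neutrophil and monocyte markers 2 of 9, pan-leukocyte markers 1 of 7 and platelet markers none of 4, beside 2.28% of all features. Without the 4 widest arrays the median was -0.09 for T and NK markers (7 called lower, 1 higher) and -0.55 for Kupffer markers (5 called lower). It went from -0.55 to -0.13 for neutrophil, -0.46 to -0.20 for pan-leukocyte, -0.09 to -0.01 for platelet and -0.08 to -0.09 for B lymphocyte markers. XYF 12 had the highest Kupffer, lymphocyte and neutrophil means of all livers and the highest Itgal, Itgax, Itgb2 and Itgb7 values. XYM 14 had the highest Kupffer mean of the gonadal males and their highest Itgal and Itgax values. Their highest Itgb2 value was in XYM 20 (-0.01, against -0.05 in XYM 14) and their highest Itgb7 value in XXM 9 (-0.21, against -0.23). Their highest T and NK lymphocyte mean was in XXM 32 (-0.11, against -0.16 in XYM 14). The part of leukocyte number in the integrin differences was not tested.

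**Figure D4:**
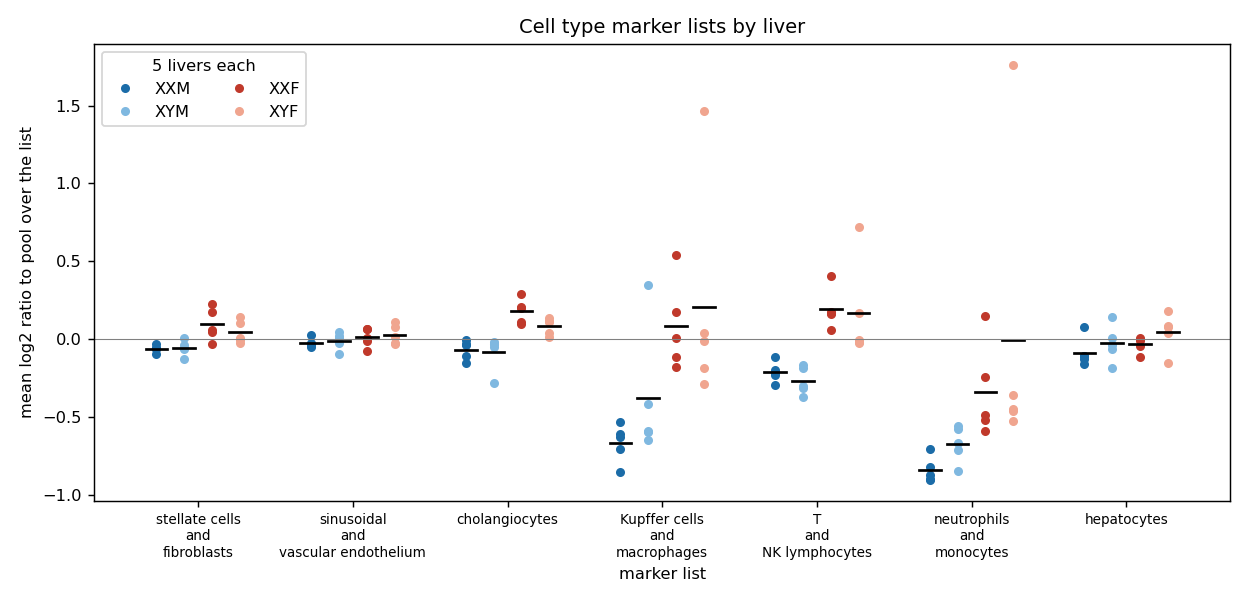
Mean log2 ratio to the pool over each marker list (points, 1 per liver) with group means (bars), for 7 cell types and groups in the order XXM, XYM, XXF and XYF. Lymphocyte means of gonadal males lie at -0.37 to -0.11, below all gonadal females, and XYF 12 stands above the other livers for Kupffer, lymphocyte and neutrophil lists.

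The difference between gonadal types was also taken within each sex chromosome complement. All 15 called genes were lower in gonadal males within XX and within XY livers. They had been called on the mean of both differences in the same livers, so this shared sign is largely fixed by the choice. Within XX, 3 members (2.73%) were called lower and none higher, against 0.645% of all features called, 0.441% lower and 0.204% higher: Mmp2 (-0.56 ± 0.09, adjusted p = 0.00503), Lama1 (-0.89 ± 0.15, adjusted p = 0.0105) and Col14a1 (-0.62 ± 0.14, adjusted p = 0.0482). Without XYF 12, which enters through the shared spread, 10 members were called, while the calls over all features went up as well, to 462 against 139 with all arrays. Within XY, Col4a6 alone was called (-0.54 ± 0.10, adjusted p = 0.0296), which is 0.909% of the members against 0.158% of all features, 0.116% lower and 0.0418% higher. It was not called without XYM 5, XYM 19, XYM 27, XYF 3 or XYF 24, where the count was 0 (11 to 28 of all features, against 34 with all arrays), and without XYF 12 the count was 2 (51 of all features).

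Whether the gonadal difference itself depended on the complement was tested by the interaction. None of the 110 members was called, and 0.0% of all features were. At an unadjusted limma p under 0.05 there were 4 members, all with a value more negative in XX than in XY: Mmp2 (-0.37 ± 0.12), Pdgfc (-0.66 ± 0.29), Itgb5 (-0.25 ± 0.12) and Col9a2 (-0.24 ± 0.11). The smallest adjusted p was 0.9995. This is 3.64% of the members, against 2.58% of all features. Next were Mmp13 (-0.39 ± 0.21) and, with the opposite sign, Mmp17 (0.23 ± 0.11), Itga9 (0.21 ± 0.12), Mmp1b (0.39 ± 0.23), Itgb2l (0.53 ± 0.33) and Col4a6 (0.20 ± 0.14). Of the 15 called genes 10 had the larger difference in XX, among them Mmp2 (-0.56 against -0.20) and Lama1 (-0.89 against -0.50), and 5 in XY, among them Col4a6 (-0.34 in XX and -0.54 in XY).

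**Figure D5:**
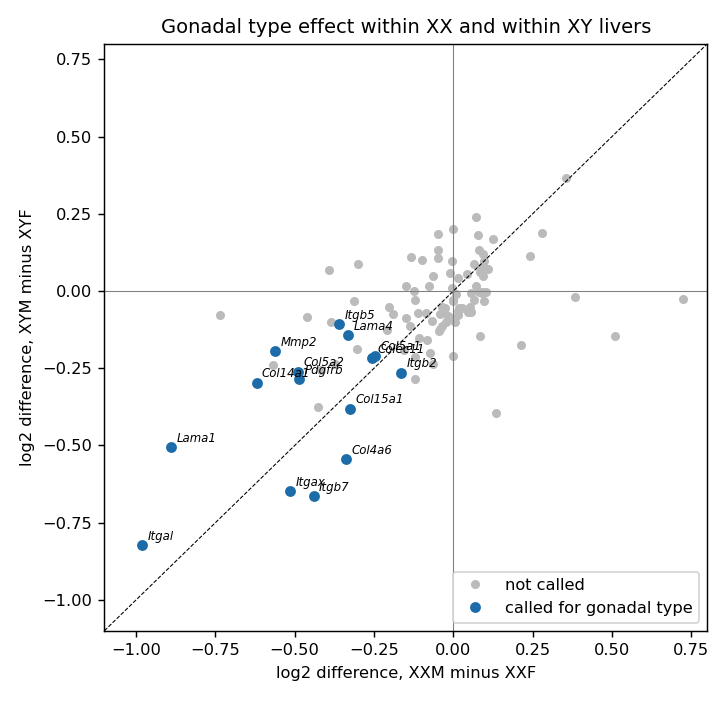
Log2 difference of gonadal males minus gonadal females for each of the 110 genes, within XX livers (horizontal axis) and within XY livers (vertical axis), 5 livers per group; the dashed line marks equal differences. The 15 called genes (blue), chosen by the mean of both differences, are below 0 on both axes. They run from Itgal at -0.98 and -0.82 to Itgb2 at -0.16 and -0.26.

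The second comparison set XX against XY livers, over both gonadal types. No member was called (limma), against 0.0278% of all features, 0.0232% lower and 0.00464% higher, and the smallest adjusted p was 0.914. At an unadjusted p under 0.05 there were 9 members, 2 lower and 7 higher in XX, which is 8.18% of the set against 5.06% of all features. Mmp13 had the smallest p. It stood at 0.39, 0.02, 0.11, -0.17 and -0.02 in XXM, and at 0.35, 0.94, 0.07, 0.26 and 0.21 in XXF livers. In XYM livers it stood at -0.01, -0.05, -0.15, -0.34 and 0.24, and in XYF livers at -0.41, -0.33, 0.08, -0.06 and -0.04. The groups overlapped, and the difference was 0.32 ± 0.10 (limma, adjusted p = 0.914). Without XYF 30 it was 0.34 and without the 4 widest arrays 0.16. Next by p among those above 0 were Fbln5, a fibulin of elastic fibres (0.25 ± 0.10), Itga6 (0.13 ± 0.05), Col9a2 (0.13 ± 0.06) and Col14a1 (0.22 ± 0.10). Those below 0 were led by Itgb2 (-0.13 ± 0.06), Col4a4, a collagen IV chain (-0.20 ± 0.09), Mmp8, the neutrophil collagenase (-0.08 ± 0.04), Col11a2 (-0.07 ± 0.04) and Col6a1 (-0.07 ± 0.04).

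The 3 X-linked members were not called between XX and XY livers: Col4a6 differed by -0.01 ± 0.07, Timp1 by -0.11 ± 0.08 and Itgb1bp2, a muscle integrin-binding protein, by 0.01 ± 0.05. Within gonadal males no member reached even an unadjusted p under 0.05, against 2.06% of all features, and the count of calls was 0 by limma, against 0.00464% of all features. Within gonadal females 17 members (15.5%) reached an unadjusted p under 0.05, against 6.08% of all features, with none called and a smallest adjusted p of 0.766. Those with the smallest p were higher in XXF than in XYF livers: Mmp13 by 0.52 ± 0.15, Col9a2, a cartilage collagen chain, by 0.25 ± 0.08, and Pdgfc by 0.57 ± 0.21. The group XYF includes the library labelled XYF 30, and XXF and XYF hold all 4 of the widest arrays.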

How the data were processed

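Liver RNA of 20 gonadectomized mice was hybridized on 20 two-colour arrays. RNeasy purification, DNase and aminoallyl amplification are named per the labels' protocols. How spots were scanned, corrected for background and normalized between dyes is not given in the sources used here. Per the labels, the pool is described as 17 chow-fed mice and as equal shares of all samples; the pool cancels between groups. The deposited table gives the authors' log10 ratios, liver to pool, of 23574 probes. Neither base nor direction is stated: base 10 was taken from the values, since Eif2s3y then stood at 1.74 ± 0.33 times the pool (SD, n = 9 XY livers), against 1.18 in base 2. Another base would scale every difference and leave p-values as they are. No column of per-sample values was left unused.

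Values were converted to log2. Probes were named by the platform annotation and the mouse gene table (115 of 118 member probes, and 3 kept the platform symbol), and probes of 1 gene were averaged. Of all values, 29 lay at the limit of 2 and 2 were missing, none of them in members. A mean per group was fitted over all 20 arrays with limma 3.58.1 in R 4.3.3 (eBayes, 16 residual degrees of freedom), with Benjamini-Hochberg adjustment over 21556 features and a threshold of 0.05. Errors are limma's SE. Levels on arrays have no counting depth, so the number of animals limits the precision. Alternatives left out libraries, changed the normalization, weights, probe averaging, variance model or samples in the fit.

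The members, the gene lists and the cell type markers were chosen with earlier results of these data known. Named are the members called in the gonadal type, sex chromosome and interaction effects, or the 5 with the smallest p in a direction where fewer passed, those called within a complement, a fixed list of well-known matrix genes whatever their p, and up to 4 genes of each other list by p. Col5a3, Mmp12, Loxl1, Itgb1bp2, and Col9a2 and Pdgfc within gonadal females, were named after their values were seen. So were the cholangiocyte markers that were not called, and Itgb2l between gonadal types. Genes correlated with a member are not given. Replicate numbers are animal numbers and all differ.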

Additional observations from a re-analysis of the deposited data

Results flagged for a closer look

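The 15 called genes were screened in each of the 4 groups of 5 livers, 60 groups in all, for a liver far from the other 4. Chance marks about 1 in 20 such groups. In 8 groups the gap to the nearest other liver passed Dixon's critical value of 0.71 of the range. XYF 12 stood above the rest of its group for Itgal at 1.66 (next 0.27), for Itgax at 1.48 (next 0.24) and for Itgb7 at 1.29 (next 0.26). The same liver had the highest Kupffer cell mean (1.47) and neutrophil mean (1.76) of all livers. XYM 5 was far below its group for Col15a1 at -0.88 (next -0.07), and XXF 6 was low for the same gene at 0.10 (next 0.24). XYM 14 was high for Colec11 at 0.20 (next -0.12), XXF 29 was low for Colec11 at 0.0408 (next 0.20), and XXF 35 was low for Itgb5 at -0.0191 (next 0.19). The causes were not tested.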

How the results depend on the processing

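No paired analysis was possible because the replicate numbers are animal numbers and all differ between groups. No direction of a named member reversed while called. Counts over all features are in brackets. For gonadal type, 15 members (808) were called as reported, and 9 (723) without XYF 30 and the 4 widest arrays together (an alternative chosen after seeing the data); other settings gave 11 (830) to 20 (1704). Leaving out 1 liver gave 8 to 17 calls, with 8 (402) without XXM 31, 9 without XYM 19 (391) or XXF 2 (491) and 17 (1129) without XYF 30. Lama1, Col4a6, Mmp2, Col14a1, Itgal and Itgb7 were called under every alternative run. Pdgfrb was not called without XXM 9, XXM 18, XXM 31, XXM 38, XYM 5, XYM 19, XXF 2 or XYF 3 (adjusted p up to 0.065). Itgb5 failed without XXM 18, XXM 31, XXM 32, XXM 38, XYM 5, XYM 19, XYM 27, XXF 2, XXF 21 or XYF 24 (up to 0.0668). Itgb2 failed without any XXM liver, XYM 5, XYM 19, XYM 27, XXF 2, XXF 6 or XXF 21 (up to 0.0784), and Itgax without any XXM liver, any XYM liver but XYM 14, or XXF 2, XXF 21 or XXF 35 (up to 0.0802). Col15a1 was called only without XXM 18, XYM 5, XYM 14, XYM 20, XXF 6 or XYF 30 (otherwise up to 0.0991). Without the 4 widest arrays Lama4, Colec11, Pdgfrb, Itgb5, Itgb2 and Col15a1 were not called, and Itga6 and Timp3 were.

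Within XX livers the 3 calls (139) became 5 (273) without the 4 widest arrays, 6 (325) without these and XYF 30, 10 (405) by quantile normalization, 10 (580) with array weights and 9 (385) with only XXM and XXF in the fit, and 2 to 10 without 1 liver, with 10 (462) without XYF 12. Within XY livers the 1 call (34) became 0 (52) without the 4 widest arrays, 0 (17) without these and XYF 30, 2 (56) by quantile normalization and 0 (4) with only XYM and XYF, and 0 to 2 without 1 liver. The cause was not tested. Counts of members for sex chromosomes were 0 under every alternative run. Over all features, the sex chromosome calls ran from 0 without the 4 widest arrays to 14 without these and XYF 30. Interaction counts were 0 (0) under every alternative run. Probes not bright enough to measure could not be removed, since the ratios carry no intensity.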
